A study of Mus musculus with 23 samples.

Results

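Mouse embryonic fibroblasts in which wild-type p53 had been switched on from a silenced allele were compared with fibroblasts that carried wild-type p53 throughout. The comparison took the 3 arrays titled LSL-WT+Cre and the 3 titled WT+Cre, 6 of the 23 arrays of the series, chosen by their titles. All cells of all groups carried a retroviral H-Ras V12 oncogene, which drives wild-type fibroblasts into senescence. In LSL-WT+Cre the cells held a p53 LSL-WT knock-in allele, silenced by a stop cassette (LSL), and received an adenovirus with Cre recombinase (Adeno-Cre), which removes the cassette. WT+Cre cells had wild-type p53 and received the same virus. A pair of further groups, used here only as a measure of the cells without p53, were LSL-WT+Emp (3 arrays, the same knock-in with an adenovirus without Cre) and Null+Cre (3 arrays, p53-null with Adeno-Cre). The strain was 129/Sv or a mix of 129/Sv and C57BL6 in all 4 groups except Null+Cre, where every label read 129/Sv. The labels do not give the number of knock-in copies per cell, the age of the embryos, the time after virus, or whether replicates were separate embryos or cultures. P-values therefore measure the spread between samples of unstated origin. That spread, also behind each standard error, was pooled over all 23 arrays after allowing for group and title number. It is not the spread of the 6 compared arrays alone. Cassette removal was not measured on these arrays.

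p53 is a transcription factor that stressed cells and cells with active Ras accumulate. It raises genes of cell-cycle arrest and apoptosis, and through Cdkn1a, an inhibitor of cyclin-dependent kinases, it lowers the many genes that E2F factors drive in dividing cells. It also raises Mdm2, the ubiquitin ligase that degrades it. Mdm2 and its relative Mdm4 therefore form a feedback loop that sets how much active p53 a cell holds.

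The labels and levels of the 6 arrays differed in ways that the allele does not describe. The inactive X chromosome is marked by Xist, whose log2 levels were 6.40, 12.71 and 6.42 on LSL-WT+Cre 1, 2 and 3 and 11.60, 11.47 and 11.86 on WT+Cre 1, 2 and 3. The Y-linked Eif2s3y ran the other way, at 9.21, 3.90 and 9.89 against 4.0, 4.0 and 3.90. Sex chromosome pattern and strain label thus matched between the groups only for the number 2 arrays. LSL-WT+Cre had 1 array of 129/Sv and 2 of mixed strain, and WT+Cre had 2 and 1. The array titled WT+Cre 3 carried the genotype label of the LSL-WT knock-in, against its title. Of the 77 named genes called below, 44 missed the threshold when it was counted with LSL-WT+Cre instead, and those values are given with the genes. Genes on X and Y were left out of every test, while effects of sex on other genes cannot be told apart from the allele except through the covariate fits. With Xist as a covariate 23 of the 77 calls ended in limma. Among them were Polh, Rrm2b, Ccne1, Cdkn2a, Ripk4, Cnr1 and Mdk, with adjusted p from 0.063 for Cdkn2a to 0.105 for Ripk4. Array medians lay between 59.9 and 64.12 on the linear scale, and the number of arrays limits the precision. Fibroblast markers were high on all 6 arrays, with a mean log2 level of 11.55 to 12.63 over 10 markers such as the collagens Col1a1 and Col1a2, and 0 of 10 passed the test between the groups (limma, 1 at an unadjusted p below 0.05).

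A total of 1304 of 14756 genes differed between restored and constitutive p53 at an adjusted p below 0.05 (8.84%). Of these, 507 were higher in LSL-WT+Cre (3.44%) and 797 lower (5.4%). P-values throughout are two-sided, from limma's moderated test with Benjamini-Hochberg adjustment over all genes tested. Most differences were small: 39 genes were at least 2-fold higher and 85 at least 2-fold lower, and the 2 groups did not overlap in 779 of the 1304. For all genes tested the groups did not overlap in 1894 (12.8%), with LSL-WT+Cre above in 671 (4.55%) and below in 1223 (8.29%). The test compared arrays of equal title number, whose deviations from the group means correlated at 0.303, 0.547 and 0.605. Without that block 142 genes passed (41 higher, 101 lower), every one also among the 1304. With the 6 arrays fitted alone limma called 0 genes, against 2546 at an unadjusted p below 0.05. The count also fell to 45 without the number 1 arrays of every group, to 215 without LSL-WT+Cre 1, to 421 without WT+Cre 1 and to 745 without LSL-WT+Cre 3. Without WT+Cre 3 it was 1641, of which 1070 were among the 1304. With WT+Cre 3 counted as LSL-WT+Cre it was 1056, of which 585 were. With Xist as a covariate it was 657 (261 higher, 396 lower). Centring each array on its median gave 334 higher and 1307 lower, so the share of higher genes depended on the scaling.

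**Figure D1:**
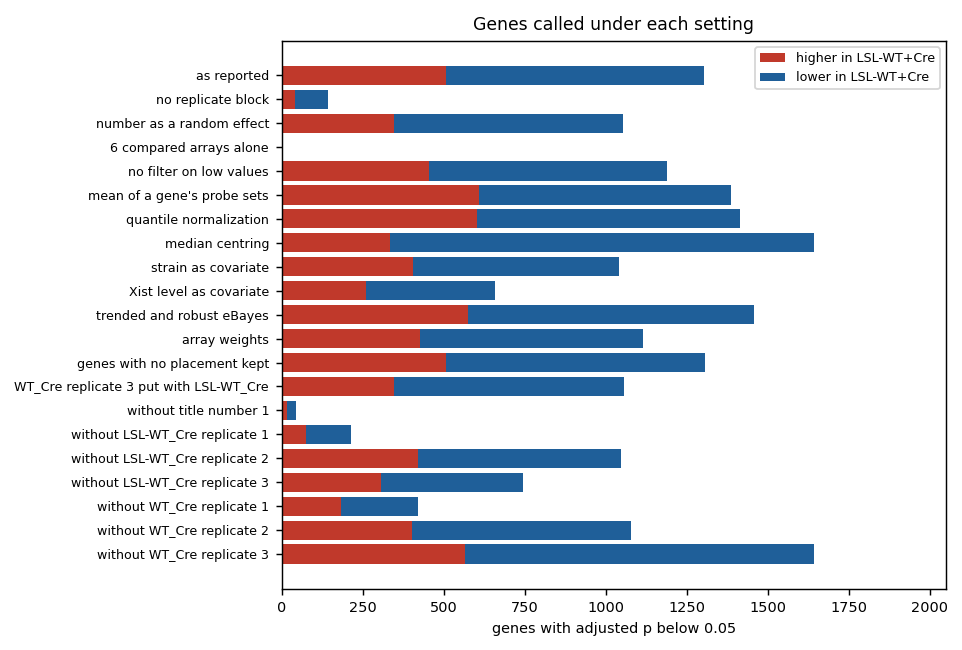
Number of genes (x axis) that passed an adjusted p of 0.05 between LSL-WT+Cre and WT+Cre under each setting (y axis), split into genes higher (red) and lower (blue) in LSL-WT+Cre. The 1304 genes of the reported fit fell to 142 without the replicate block, 45 without the number 1 arrays and 0 with the 6 arrays alone.

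Among the p53 targets of arrest and feedback, 4 of 22 were higher with the restored allele, the feedback regulators Mdm4 and Mdm2 among them, and 0 were lower (5 at an unadjusted p below 0.05 in limma). Among all genes 3.44% were higher and 5.4% lower. The median log2 difference of the list was 0.22, against -0.029 for all genes, and 20 of 22 members had a positive difference. Mdm4 had log2 levels of 8.38, 8.67 and 8.57 in LSL-WT+Cre and 7.68, 7.89 and 7.96 in WT+Cre, so the groups did not overlap. The difference was 0.70 ± 0.08 (SE, n = 3 and 3; adjusted p = 7.07e-04, 1.62-fold), and it passed in each of the 6 fits with 1 array left out, without the block and with WT+Cre 3 moved. Over all 20 alternative settings, which include other scalings and probe choices, the size ranged from 0.24 to 0.76. The Mdm4 call missed only with the 6 arrays fitted alone (adjusted p = 0.134). Mdm2 stood at 13.14, 13.65 and 13.14 against 12.60, 12.95 and 12.68. Every restored array was above every constitutive one, by 0.57 ± 0.11 (adjusted p = 0.00598), or 0.54, 0.69 and 0.47 within the number 1, 2 and 3 pairs. The Mdm2 call passed in each of the 6 fits with 1 array left out, and missed without the block (adjusted p = 0.0733), with WT+Cre 3 moved (0.45, adjusted p = 0.114) and without the number 1 arrays (adjusted p = 0.0828).

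The other members of the list that rose were Zmat3, a zinc-finger RNA-binding protein, and Ptp4a3, a phosphatase. Zmat3 lay at 10.99, 11.19 and 11.35 against 10.70, 10.48 and 11.15, with overlap, and differed by 0.40 ± 0.09 (adjusted p = 0.0186). The Zmat3 call ended without LSL-WT+Cre 1 or 2 or WT+Cre 1 or 2, where the difference ranged over all 6 left-out fits from 0.29 to 0.49 and the adjusted p reached 0.0739. Ptp4a3 lay at 10.33, 11.22 and 10.14 against 9.69, 10.43 and 9.76, with overlap, and differed by 0.60 ± 0.16 (adjusted p = 0.0316). That call ended with any left-out array except WT+Cre 3, with an adjusted p of up to 0.127, and with WT+Cre 3 moved (0.62, adjusted p = 0.0636).

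Unlike Mdm2, the p53-dependent genes Cdkn1a, Ccng1, Psrc1, Sulf2 and Perp missed the threshold between the groups. Cdkn1a stood at 13.45, 14.09 and 13.42 in LSL-WT+Cre and 13.34, 13.89 and 13.33 in WT+Cre, a difference of 0.13 ± 0.10 (adjusted p = 0.444) with a 95% interval of -0.07 to 0.34. On both sides the number 2 array was the highest. Ccng1, a cyclin that p53 raises, had levels of 13.88, 14.20 and 14.11 against 14.03, 14.06 and 14.08 and an interval of -0.20 to 0.21. For Psrc1, a microtubule regulator and p53 target, the interval ran from -0.46 to 0.66, and for Sulf2, a heparan sulphate sulphatase, from -0.31 to 0.38. Perp, a junction protein of p53-dependent apoptosis, was the least precise, at -1.05 to 0.65, an interval that reached beyond 2-fold.

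In the apoptosis list 4 of 17 genes were higher and 1 was lower with the restored allele. The share called was 29.4%, against 8.84% of all genes (3.44% higher, 5.4% lower). The median log2 difference was 0.15. Apaf1, the scaffold of the apoptosome, lay at 10.19, 10.48 and 10.42 against 9.60, 9.85 and 10.01, without overlap. It was higher by 0.54 ± 0.10 (adjusted p = 0.00497) and passed with any 1 array left out. Bbc3, which encodes the BH3-only protein Puma, lay at 9.09, 9.32 and 8.82 against 8.62, 8.77 and 8.18, also without overlap. It was higher by 0.55 ± 0.12 (adjusted p = 0.0125), a call that ended without LSL-WT+Cre 1 (0.48 to 0.64 over the left-out fits, adjusted p up to 0.0749). Ei24, an endoplasmic reticulum protein induced by p53, differed by 0.50 ± 0.11 (11.67, 11.79 and 11.64 against 11.35, 10.95 and 11.30; adjusted p = 0.0135). Its call ended without LSL-WT+Cre 1 or 2 or WT+Cre 2, with an adjusted p of up to 0.0563. Siva1, a pro-apoptotic adaptor, differed by 0.42 ± 0.08 with overlapping groups (12.58, 12.45 and 12.05 against 12.10, 12.01 and 11.72; adjusted p = 0.00751). Triap1, an inhibitor of apoptosis that p53 raises, went the other way at 9.20, 9.63 and 9.19 against 10.31, 10.02 and 9.63. It was lower by 0.65 on the log2 scale (-0.65 ± 0.14, adjusted p = 0.0104), and the call ended without LSL-WT+Cre 1 or WT+Cre 1 (-0.82 to -0.46, adjusted p up to 0.078). Moving WT+Cre 3 ended the calls of Apaf1 (0.43, adjusted p = 0.104), Bbc3 (0.35, 0.282) and Ei24 (0.39, 0.153), and Siva1 and Triap1 still passed.

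The list of DNA repair and redox targets held 0 of 15 genes higher and 3 lower (6 at an unadjusted p below 0.05 in limma). Among all genes 3.44% were higher and 5.4% lower. The median log2 difference of the list was -0.13. The groups did not overlap for any of the 3 lower genes. Polh, a translesion polymerase, lay at 7.76, 7.58 and 7.49 against 8.03, 8.05 and 8.0, a difference of -0.42 ± 0.11 (adjusted p = 0.0267). Rrm2b, the p53-induced subunit of ribonucleotide reductase, lay at 8.47, 8.56 and 8.65 against 9.13, 8.70 and 8.97 (-0.37 ± 0.10, adjusted p = 0.0335). Tigar, which lowers glycolytic flux and oxidative stress, lay at 7.86, 7.61 and 7.92 against 8.29, 7.94 and 8.15 (-0.33 ± 0.07, adjusted p = 0.0105). All 3 calls ended without LSL-WT+Cre 1 or WT+Cre 1. Over the left-out fits the adjusted p reached 0.107 for Polh, which also ended without LSL-WT+Cre 2 or 3 or WT+Cre 2, 0.182 for Rrm2b, which also ended without LSL-WT+Cre 3, and 0.0745 for Tigar. The Polh call also ended with WT+Cre 3 moved (-0.36, adjusted p = 0.142).

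Over the 3 p53 lists 12 of 54 genes differed (22.2%, against 8.84% of all genes), 8 higher and 4 lower, with a median log2 difference of 0.13. The members and lists were chosen with earlier results of these data known, so this share is a description. It fell to 2 of 54 without the block (Mdm4 and Triap1), to 4 without LSL-WT+Cre 1 and to 6 without WT+Cre 1, and it was 7 with WT+Cre 3 moved and 13 without it. By pair, the median over the lists was 0.01, 0.33 and 0.08 for numbers 1, 2 and 3. Of the 42 genes that missed the threshold, 37 had a 95% interval within 2-fold either way. The wider intervals, those of Ptprv, Perp, Tnfrsf10b, Steap3 and Igfbp3, reached from -1.59 to 1.67. A further 10 genes that p53 raised, picked from these samples and so not independent, included 0 that passed (limma, 0 at an unadjusted p below 0.05). Def6, Arap2 and Kank3, those of the 10 with the strongest statistic, differed by 0.35, 0.30 and 0.25.

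**Figure D2:**
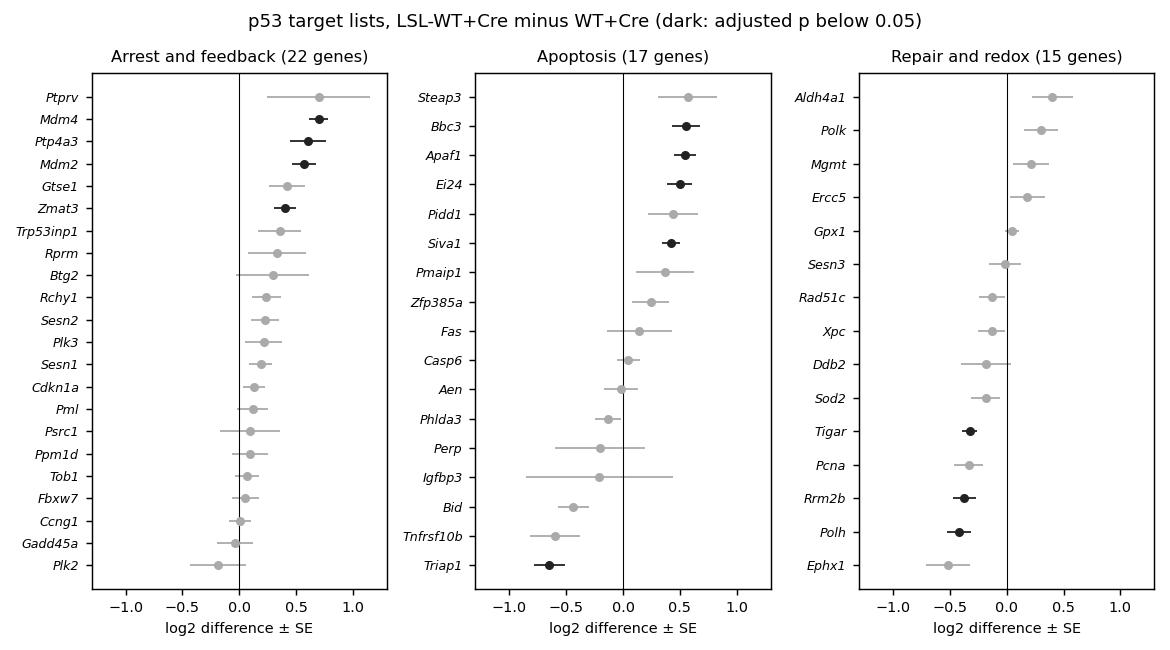
Log2 difference between LSL-WT+Cre and WT+Cre (x axis, mean ± SE, n = 3 and 3) of the 54 tested genes (y axis) of the 3 p53 target lists, dark where the adjusted p was below 0.05. Mdm4, Ptp4a3, Mdm2 and Zmat3 were above 0 in the first panel and Triap1, Tigar, Rrm2b and Polh below 0 in the others.

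Set beside the cells without p53, the arrest and apoptosis targets stood far apart in both arms, and the repair and redox targets less so. The arrest list had mean log2 levels of 8.65 to 8.82 in LSL-WT+Emp and 8.56 to 8.74 in Null+Cre, and of 10.49 to 10.95 in LSL-WT+Cre and 10.31 to 10.48 in WT+Cre. Across the 3 lists 39 of 54 genes were higher in LSL-WT+Cre than in LSL-WT+Emp (11.4% of all genes were). In the constitutive arm 40 of 54 were higher in WT+Cre than in Null+Cre (15.1% of all genes were). By the same tests 3 and 4 of 54 were lower (15.3% and 12.9% of all genes were). The repair and redox list was the least separated, with median log2 differences of 0.18 and 0.54. Of its 15 genes 6 and 8 were higher, and 3 were lower in each arm. Mdm2 rose by 2.94 in the restored and 2.36 in the constitutive arm, Ccng1 by 3.39 and 3.28, and Psrc1 by 5.46 and 5.86. These differences share arrays with the main comparison and are given only side by side.

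Cell-cycle genes leaned lower with the restored allele, and a few of DNA replication and the G1/S step passed. The mitosis and G2/M list had a median log2 difference of -0.26 with 39 of 43 members negative, but limma called 0 of 43 (3 at an unadjusted p below 0.05, 0 called without the block). Its mean log2 level was 9.37, 7.89 and 9.29 in LSL-WT+Cre and 9.48, 8.36 and 9.45 in WT+Cre. In both groups the number 2 array was the lowest by over 1 log2 unit, and the median turned to 0.10 without LSL-WT+Cre 2. Bub1, a checkpoint kinase of mitosis, stood at 9.68, 8.29 and 9.82 against 9.66, 8.42 and 9.84, with an interval of -0.77 to 0.70. All 43 members were lower in LSL-WT+Cre than in LSL-WT+Emp (15.3% of all genes were) and lower in WT+Cre than in Null+Cre (12.9%). In these bulk samples fewer dividing cells and less transcript per cell cannot be told apart.

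**Figure D3:**
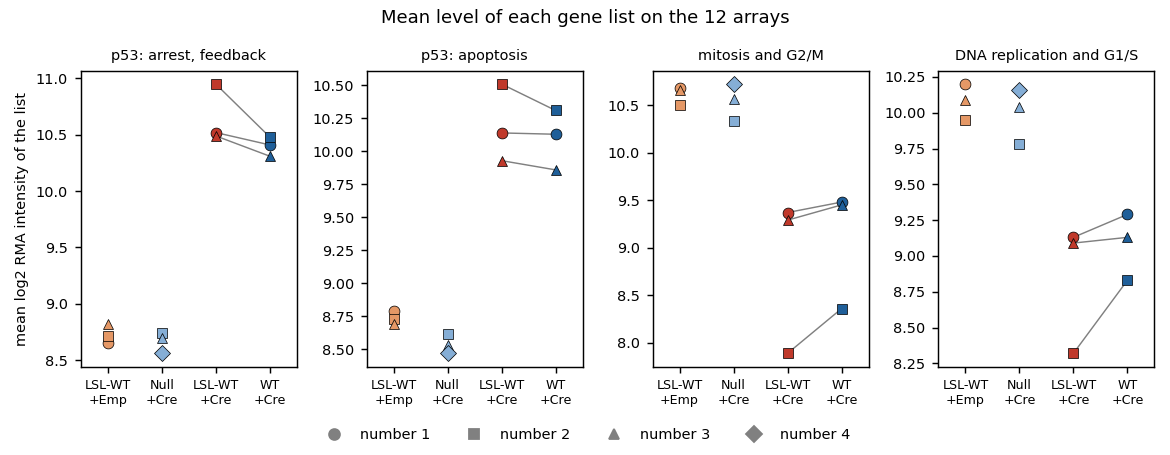
Mean log2 RMA intensity (y axis) of 4 gene lists on each of the 12 arrays of LSL-WT+Emp, Null+Cre, LSL-WT+Cre and WT+Cre (x axis); symbols give the title number and grey lines join equal numbers. In each panel the 6 arrays with p53 lie apart from the 6 without, and the number 2 arrays are the lowest of their group in both cell-cycle lists with p53.

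In the replication and G1/S list 6 of 42 genes were lower (14.3%, against 5.4% of all genes) and 0 higher (limma), with a median log2 difference of -0.22. The largest difference was that of Ccne2, cyclin E2, which with its kinase starts S phase. Its log2 levels were 6.89, 6.27 and 7.41 in LSL-WT+Cre and 8.71, 7.96 and 8.66 in WT+Cre, without overlap. The difference of -1.59 ± 0.21 (adjusted p = 0.00144, 3.00-fold lower) was -1.82, -1.69 and -1.25 within the pairs and passed with any 1 array left out. It missed without the block (adjusted p = 0.0824) and without the number 1 arrays (-1.47, adjusted p = 0.0516). In the cells without p53 Ccne2 stood at 8.61, 8.78 and 8.91 in LSL-WT+Emp and 8.16, 9.36 and 9.41 in Null+Cre. WT+Cre thus lay near the cells without p53, with a difference of -0.28 (adjusted p = 0.403), and LSL-WT+Cre lay below them, with a difference of -1.91 (adjusted p = 1.25e-05).

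Ccne1, cyclin E1, lay at 9.23, 8.96 and 9.74 against 10.25, 10.22 and 9.80, a difference of -0.78 ± 0.21 (adjusted p = 0.0361). Its number 3 arrays were nearly equal, at -0.06. Orc6, a subunit of the origin recognition complex, differed by -0.45 ± 0.10 (adjusted p = 0.0105) and passed with any 1 array left out. Rrm2, the S-phase subunit of ribonucleotide reductase, and Brca1, of homologous recombination, both differed by -0.61, with an SE of 0.16 and 0.18 and adjusted p of 0.0315 and 0.044. Rpa2, of the single-strand binding complex, differed by -0.48 ± 0.12 (adjusted p = 0.028). The calls of Ccne1, Rrm2, Brca1 and Rpa2 ended without LSL-WT+Cre 1 or 2 or WT+Cre 1 or 2, with adjusted p of up to 0.191, 0.144, 0.162 and 0.11. Moving WT+Cre 3 ended those of Rrm2 (-0.57, adjusted p = 0.102), Brca1 (-0.60, 0.101) and Rpa2 (-0.47, 0.0736). Cdc6, the loader of the replicative helicase, was not called (-0.34 ± 0.29, adjusted p = 0.521).

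Over both cell-cycle lists 6 of 85 genes passed (7.1%, below the 8.84% of all genes), and the median difference was -0.25. The count was 0 without the block, 2 without LSL-WT+Cre 1, without WT+Cre 1 or without WT+Cre 2, 3 without LSL-WT+Cre 2 (1 higher, 2 lower, median 0.016) and 10 without WT+Cre 3. By pair the median was -0.10, -0.51 and -0.11 for numbers 1, 2 and 3. Of the 79 genes that missed the threshold, 71 had a 95% interval within 2-fold, and the others reached from -1.23 to 0.78.

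The start-site windows of the genes that fell were read from RefSeq (GRCm38.p6; 250 bases before to 50 after the start), since E2F factors bind short words near the starts of such genes. The words TTTGGCGC, TTTCGCGC, TTTCCCGC and TTTGCCGC were searched on both strands. They were found in 744 of 32851 promoters (2.26%), in 16 of the 70 cell-cycle genes with a promoter in the table and in 0 of the 5 with a promoter among the 6 that fell. The same words without their first T, a form chosen after that search, were found in 3145 of 32851 (9.57%), in 28 of 70 and in 3 of 5. The windows of those 3, at chr4:132768110-132768409 (plus strand) for Rpa2, chr12:24708004-24708303 (plus strand) for Rrm2 and chr11:101551906-101552205 (minus strand) for Brca1, are shown 5′ to 3′ with the shorter word in capitals. A match is a description of the letters and not a measured site.
Rpa2: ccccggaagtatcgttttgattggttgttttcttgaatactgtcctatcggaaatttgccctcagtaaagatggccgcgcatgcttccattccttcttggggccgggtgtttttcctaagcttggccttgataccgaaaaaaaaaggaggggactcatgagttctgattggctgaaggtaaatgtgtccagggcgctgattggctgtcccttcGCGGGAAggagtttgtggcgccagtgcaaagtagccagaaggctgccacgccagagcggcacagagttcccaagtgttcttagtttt
Rrm2: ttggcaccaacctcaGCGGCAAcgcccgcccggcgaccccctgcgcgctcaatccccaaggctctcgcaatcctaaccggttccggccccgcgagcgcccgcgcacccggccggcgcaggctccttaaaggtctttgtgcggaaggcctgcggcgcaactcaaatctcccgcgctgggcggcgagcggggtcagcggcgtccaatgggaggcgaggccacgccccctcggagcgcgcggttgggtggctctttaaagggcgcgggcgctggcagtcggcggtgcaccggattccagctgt
Brca1: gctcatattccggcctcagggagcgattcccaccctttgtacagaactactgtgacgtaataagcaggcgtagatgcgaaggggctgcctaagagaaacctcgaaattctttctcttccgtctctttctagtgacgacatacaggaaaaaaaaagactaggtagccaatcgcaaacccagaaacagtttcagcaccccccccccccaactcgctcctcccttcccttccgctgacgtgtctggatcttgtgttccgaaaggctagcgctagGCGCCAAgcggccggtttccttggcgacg
For the p53 lists a pair of p53 half-sites with up to 13 bases between them was searched in the same windows. It was found in 24 of 32851 promoters (0.0731%), in 1 of 44 list genes with a promoter and in 0 of the 9 with a promoter among the 12 that differed. With so rare a match the search cannot show whether these genes hold a p53 site. Sequence outside the windows was not searched.

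Among the inhibitors of cyclin-dependent kinases 2 of 6 were higher with the restored allele (33.3%, against 3.44% of all genes), both of the Ink4 class. The 6 leave out Cdkn1a, which was counted in the arrest list and missed the threshold. Of the 6, 1 was higher and 4 lower in WT+Cre than in Null+Cre (15.1% and 12.9% of all genes were). In LSL-WT+Cre against LSL-WT+Emp limma called 0 higher and 2 lower (11.4% and 15.3% of all genes were). Cdkn2c, which encodes p18, lay at 9.85, 8.98 and 9.74 against 8.59, 8.38 and 8.72, higher by 0.96 ± 0.19 without overlap (adjusted p = 0.00872). Its levels in LSL-WT+Emp were 9.81, 9.12 and 9.65 and in Null+Cre 9.80, 9.43 and 9.46, close to those of LSL-WT+Cre. Cdkn2a, the Ink4a/Arf locus, lay at 10.75, 11.62 and 11.73 against 10.25, 10.50 and 10.75, higher by 0.87 ± 0.24 (adjusted p = 0.0366). Leaving out LSL-WT+Cre 1 or WT+Cre 1 ended the Cdkn2c call (adjusted p up to 0.0647), and leaving out any 1 of the 6 arrays ended that of Cdkn2a (0.74 to 1.04, adjusted p up to 0.114), as did moving WT+Cre 3 (0.66, adjusted p = 0.245). Cdkn1b, which encodes p27, differed by 0.51 ± 0.16 and missed (adjusted p = 0.0647).

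The Ras-MAPK feedback genes, which report signalling downstream of H-Ras, had 2 of 15 members higher (13.3%, against 3.44% of all genes), by less than 1.5-fold each, and 0 lower (limma, 7 at an unadjusted p below 0.05). The median difference was 0.21. Etv4, an ETS factor, differed by 0.40 ± 0.10 (adjusted p = 0.0202), and Phlda1 by 0.33 ± 0.10 (adjusted p = 0.0463). Etv4 missed without LSL-WT+Cre 1 or WT+Cre 1 (adjusted p up to 0.116), and Phlda1 with any left-out array except WT+Cre 2 (up to 0.238). Both missed with WT+Cre 3 moved (0.29, adjusted p = 0.228, and 0.24, adjusted p = 0.275). Dusp6, a phosphatase of ERK, differed by 0.38 ± 0.12 (adjusted p = 0.0609).

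The largest differences of all lay outside the p53 and cell-cycle lists. The 10 genes with the largest positive difference among those past the threshold with separate groups were Slc14a1, a urea transporter (1.71), Ripk4, a kinase of epidermal differentiation (1.62), Atg9b, of autophagy (1.59), Tet2, a 5-methylcytosine dioxygenase (1.51), Rspo1, an enhancer of Wnt signalling (1.51), Cnr1, a cannabinoid receptor (1.48), the long noncoding RNA Neat1 (1.41), Eml5 (1.31), the growth factor Mdk (1.31) and Gdap10 (1.28). Rspo1 lay at 6.44, 6.85 and 6.08 against 4.74, 5.29 and 4.82 (± 0.22, adjusted p = 0.00176). Neat1, the scaffold of nuclear paraspeckles, lay at 11.54, 12.44 and 11.22 against 9.75, 11.14 and 10.09 (± 0.19, adjusted p = 0.00144). Tet2 lay at 8.54, 7.90 and 8.11 against 5.82, 7.17 and 7.02 (± 0.28, adjusted p = 0.00589), with WT+Cre 1 the lowest of the 6. Rspo1, Neat1 and Tet2 passed with any 1 array left out. Without the block Rspo1 and Tet2 passed and Neat1 missed (adjusted p = 0.191). Over all alternative settings the Neat1 difference ranged from 0.68 to 1.60.

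Of the others, Slc14a1 missed without LSL-WT+Cre 1 (adjusted p = 0.0541), and Atg9b, Eml5 and Gdap10 missed without LSL-WT+Cre 1 or WT+Cre 1 (adjusted p up to 0.0742, 0.11 and 0.0895). Cnr1 missed without those or LSL-WT+Cre 3 (0.91 to 1.80, adjusted p up to 0.194), Mdk without those or WT+Cre 2 as well (up to 0.103) and Ripk4 with any left-out array except WT+Cre 2 (up to 0.123). With Xist as a covariate only Ripk4, Cnr1 and Mdk of the 10 missed (adjusted p = 0.105, 0.1 and 0.0639). When WT+Cre 3 was moved, only Slc14a1, Rspo1 and Cnr1 of the 10 still passed. The others then differed by 0.63 for Ripk4 (adjusted p = 0.637), 1.10 for Atg9b (0.214), 1.32 for Tet2 (0.0617), 1.11 for Neat1 (0.0698), 0.98 for Eml5 (0.192), 1.25 for Mdk (0.0692) and 0.93 for Gdap10 (0.196).

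**Figure D4:**
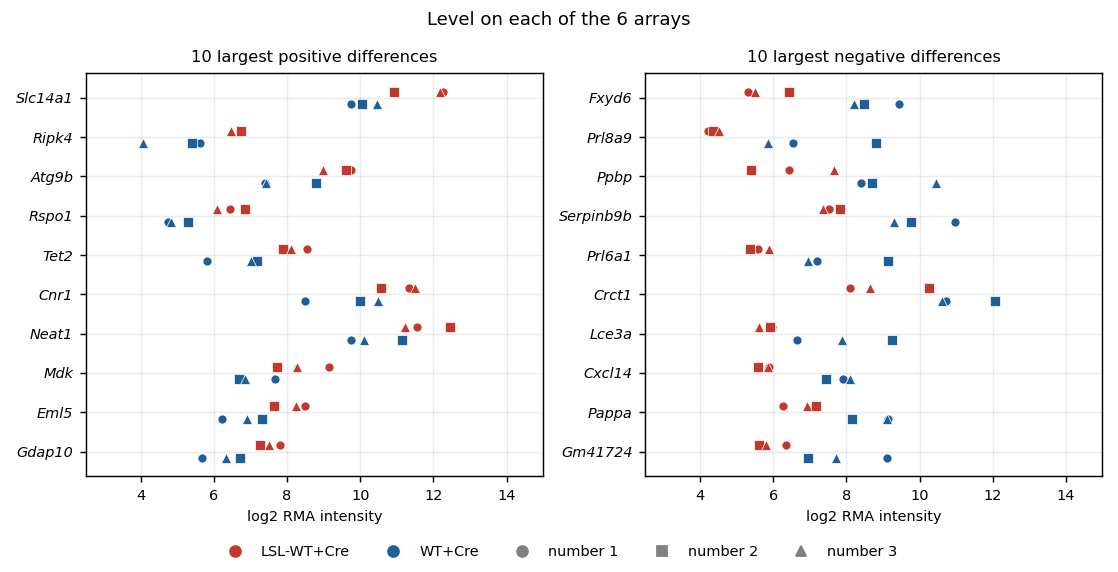
Log2 RMA intensity (x axis) of the 20 genes (y axis) with the largest positive and negative differences on each of the 3 LSL-WT+Cre (red) and 3 WT+Cre (blue) arrays; symbols give the title number. The groups do not overlap for any of them, which the rule for choosing them required.

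The 10 genes with the largest negative difference were Fxyd6, a regulator of the sodium pump (-2.96), Prl8a9 (-2.71) and Prl6a1 (-2.15) of the placental prolactin family, the platelet chemokine Ppbp (-2.69), the serpin Serpinb9b (-2.44), Crct1 (-2.14) and Lce3a (-2.09) of the cornified envelope, the chemokine Cxcl14 (-2.04), Pappa, a protease of IGF-binding proteins (-2.01), and Gm41724 (-2.00). Fxyd6 lay at 5.31, 6.42 and 5.51 in LSL-WT+Cre and 9.44, 8.48 and 8.21 in WT+Cre (± 0.42, adjusted p = 0.00159, 7.79-fold). Prl8a9 lay at 4.22, 4.36 and 4.51, all under the low threshold of 4.79, against 6.55, 8.82 and 5.86 (± 0.49, adjusted p = 0.00504). All 6 arrays without p53 were under it too, and Prl8a9 passed the filter on low values through the 3 WT+Cre arrays alone, so its difference is a bound. Set against the threshold, WT+Cre was at least 4.89-fold higher. Serpinb9b lay at 7.53, 7.83 and 7.35 against 10.96, 9.78 and 9.31 (± 0.34, adjusted p = 0.00149). Without LSL-WT+Cre 1 the calls of Crct1 (adjusted p = 0.0504) and Pappa (adjusted p = 0.0552) ended, and the other 8 passed with any 1 array left out. With WT+Cre 3 moved 5 of the 10 missed: Ppbp (-1.67, adjusted p = 0.267), Lce3a (-1.68, 0.0947), Cxcl14 (-1.31, 0.219), Pappa (-1.38, 0.2) and Gm41724 (-1.61, 0.0797).

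Several of these genes belong to families of barrier epithelium, listed here after their values were seen. Of 21 tested genes of the cornified envelope, the protein shell of outer skin cells, 6 were lower with the restored allele and 0 higher (limma). Among all genes 5.4% were lower. Crct1 lay at 8.10, 10.25 and 8.64 against 10.72, 12.06 and 10.62, and stood 2.69 above LSL-WT+Emp in the restored arm and 4.60 above Null+Cre in the constitutive one. Lce1h lay at 10.84, 11.43 and 10.87 against 12.44, 12.50 and 11.56 (-1.12 ± 0.29, adjusted p = 0.0276), 1.55 and 3.38 above the cells without p53. Lce1f, Lce3a, Sbsn (-1.77) and Sprr2k (-0.76) made up the 6, a count that includes 1 gene measured above the threshold in WT+Cre only. This was Lce1f, at 4.53, 4.55 and 4.47 against 6.24, 6.35 and 5.28, which lay under 4.79 on the 6 arrays without p53 as well. It passed the filter through WT+Cre alone, at least 2.24-fold above the threshold. The Lce1h call ended without LSL-WT+Cre 1 or 3 or WT+Cre 1 or 2 (adjusted p up to 0.166), and that of Sbsn without LSL-WT+Cre 1 (0.051). Sprr2k missed with WT+Cre 3 moved (-0.66, adjusted p = 0.0531).

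Claudins, the strand proteins of tight junctions, had 2 of 18 lower and 0 higher (limma), where 5.4% of all genes were lower. Cldn1 lay at 5.90, 5.88 and 5.85 in LSL-WT+Cre and 8.32, 8.34 and 6.97 in WT+Cre, where WT+Cre 3 was the lowest of its group. The difference was -2.00 ± 0.23 (adjusted p = 6.53e-04), it passed with any 1 array left out, and the LSL-WT+Cre levels were near those of LSL-WT+Emp (6.12, 6.06 and 5.89) and Null+Cre (5.60, 5.81 and 5.31). Cldn4 differed by -0.95 ± 0.25 (adjusted p = 0.028), a call that ended with any left-out array except WT+Cre 3 (-1.33 to -0.53, adjusted p up to 0.125). Of 9 clade B serpins, intracellular protease inhibitors, 4 were lower, as were 4 of 10 S100 calcium-binding proteins, where 5.4% of all genes were. Among the latter S100a16 lay at 9.03, 8.15 and 8.89 against 10.73, 10.29 and 10.32 (-1.76 ± 0.30, adjusted p = 0.0047) and S100a13 differed by -0.95 ± 0.16 (adjusted p = 0.00434), and both passed with any 1 array left out. The other calls rested on single arrays except that of Serpinb9b. Serpinb1a missed without LSL-WT+Cre 1 or 3 or WT+Cre 1 (adjusted p up to 0.134), Serpinb8 without any 1 LSL-WT+Cre array or WT+Cre 1 (0.141) and Serpinb9 without LSL-WT+Cre 1 or WT+Cre 1 (0.075). S100a3 missed without LSL-WT+Cre 1 or WT+Cre 1 or 2 (0.093), and S100a8 without those or LSL-WT+Cre 2 (0.18). Moving WT+Cre 3 ended the calls of Serpinb1a (-0.88, adjusted p = 0.198), Serpinb9 (-0.87, 0.102) and S100a16 (-1.53, 0.0577).

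Markers of other cell types are given beside these genes, and their part in the results was not tested. For comparison, 3.44% of all genes were higher and 5.4% lower. Of 11 tested epithelial markers 1 was lower (Cldn4) and 0 higher past the threshold. By sign 10 were negative and 1, Krt18, positive, with a median of -0.11. Mean log2 levels were 6.95 to 7.16 in LSL-WT+Cre and 7.15 to 7.47 in WT+Cre. Dsp, the desmosome protein desmoplakin, stood at 6.83, 9.23 and 6.55 against 9.47, 9.18 and 8.70 (-1.58 ± 0.51, adjusted p = 0.0658), and Krt18, a keratin of simple epithelia, at 12.32, 12.51 and 11.99 against 11.42, 12.09 and 11.53 (0.60 ± 0.20, adjusted p = 0.07). Of 7 macrophage markers 2 were higher and 0 lower. Cd14, a co-receptor for lipopolysaccharide, lay at 8.26, 8.13 and 7.79 against 7.36, 6.75 and 7.32 (0.92 ± 0.17, adjusted p = 0.00589), and Cd68, a lysosomal protein, at 8.68, 8.11 and 8.13 against 7.60, 7.21 and 7.08 (1.01 ± 0.27, adjusted p = 0.0346). The macrophage list as a whole had mean levels of 6.26 to 6.33 against 5.93 to 6.14. Its median difference was -0.04, with 3 members positive and 4 negative. Ptprc, Itgam and Aif1 fell below the filter on low values. The Cd14 call ended without LSL-WT+Cre 1 (adjusted p = 0.0504) and that of Cd68 with any 1 array left out (up to 0.168) or with WT+Cre 3 moved (0.73, adjusted p = 0.275).

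Of 10 skeletal muscle markers 1 was lower, Acta1, skeletal actin, at 10.66, 9.82 and 10.32 against 12.20, 11.46 and 10.90 (-1.25 ± 0.25, adjusted p = 0.00819). Its call ended without LSL-WT+Cre 1 or WT+Cre 1 (adjusted p up to 0.0557). Among 4 adipocyte markers Fabp4 was higher (0.63 ± 0.16, adjusted p = 0.0251, ended without LSL-WT+Cre 1 or any 1 WT+Cre array, up to 0.168, and with WT+Cre 3 moved, 0.214). In limma 0 of 7 endothelial (2 at an unadjusted p below 0.05), 0 of 9 neural (1) and 0 of 5 cartilage and bone markers (0) passed. Sox2, a stem-cell factor of the neural list, varied within the groups, at 10.48, 8.20 and 10.74 against 6.71, 9.09 and 8.83.

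Secreted and matrix genes differed in a few members, with calls that changed with the array titled WT+Cre 3. Of 33 factors of the senescence-associated secretome 1 was higher and 4 were lower, with a median of -0.22 (0 higher, 2 lower and -0.12 with WT+Cre 3 moved). The share called was 15.2%, against 8.84% of all genes. Il1rn, the interleukin-1 receptor antagonist, lay at 9.49, 9.10 and 9.41 against 10.29, 11.48 and 10.26 (-1.34 ± 0.30, adjusted p = 0.0144). Csf1 (-0.68 ± 0.16, adjusted p = 0.015), Fgf2 (-0.64 ± 0.15, adjusted p = 0.0161) and Igfbp7 (-1.26 ± 0.34, adjusted p = 0.0332) were the other 3 that fell. The adhesion molecule Icam1 rose, at 8.29, 8.35 and 7.64 against 7.54, 6.68 and 6.95 (1.04 ± 0.28, adjusted p = 0.0335). All 5 calls ended without LSL-WT+Cre 1. Csf1 and Icam1 also ended without LSL-WT+Cre 2 or WT+Cre 2, Fgf2 without LSL-WT+Cre 2, WT+Cre 1 or WT+Cre 3, Igfbp7 without LSL-WT+Cre 3, WT+Cre 1 or WT+Cre 3, and Icam1 without WT+Cre 1 or 3, with adjusted p of up to 0.0691 for Il1rn, 0.0695 for Csf1, 0.0647 for Fgf2, 0.158 for Igfbp7 and 0.132 for Icam1. Moving WT+Cre 3 ended the calls of Csf1, Fgf2, Igfbp7 and Icam1 (adjusted p 0.215, 0.487, 0.261 and 0.217).

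Of 27 matrix and fibroblast identity genes 4 were lower (14.8%, against 5.4% of all genes) and 0 higher, with a median of -0.09 and 16 of 27 negative. The direction did not hold: with WT+Cre 3 moved 3 were higher and 0 lower (median 0.15), without it 3 were higher and 1 lower (median 0.08), and with Xist as a covariate limma called 0 (median -0.13). The 4 that fell in the fit reported were thrombospondin Thbs1 (-1.20 ± 0.32, adjusted p = 0.0335), fibronectin Fn1 (-0.43 ± 0.10, adjusted p = 0.0193), the collagen Col4a1 (-0.58 ± 0.14, adjusted p = 0.021) and fibulin Fbln2 (-0.58 ± 0.15, adjusted p = 0.0328). All 4 missed with WT+Cre 3 moved (adjusted p 0.411, 0.278, 0.278 and 0.187). Without p53 the differences between LSL-WT+Emp and Null+Cre were -1.22 for Thbs1 (adjusted p = 0.133), -0.82 for Fbln2 (adjusted p = 0.0391) and -1.27 for Igfbp7 (adjusted p = 0.14), about as large as with p53. Single arrays decided these calls too: all 4 ended without LSL-WT+Cre 1 or 3 or WT+Cre 1. Thbs1, Col4a1 and Fbln2 also ended without WT+Cre 3 and Fbln2 with any array left out, and the adjusted p reached 0.166 for Thbs1, 0.117 for Fn1, 0.104 for Col4a1 and 0.145 for Fbln2. Of the contractile and YAP-SRF genes 1 of 16 was higher, tropomyosin Tpm1 (0.30 ± 0.09, adjusted p = 0.0472), and 1 lower, leiomodin Lmod1 (-0.54 ± 0.14, adjusted p = 0.0291), lost with any left-out array except LSL-WT+Cre 2 (up to 0.195) and except WT+Cre 2 (up to 0.128), and both lost with WT+Cre 3 moved (0.209 and 0.302). Ccn2, connective tissue growth factor, stood at 12.02, 11.50 and 12.33 against 12.82, 12.66 and 13.19 and missed at an adjusted p of 0.0507.

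All 13 genes of cholesterol synthesis had a positive difference, with a median of 0.30, but only Fdft1, squalene synthase, passed (0.51 ± 0.13, adjusted p = 0.0292). It ended without LSL-WT+Cre 1 or 3 or WT+Cre 1 or 2 (adjusted p up to 0.129). The mean log2 level of the list was 10.74, 10.09 and 10.66 in LSL-WT+Cre and 10.19, 9.96 and 10.40 in WT+Cre, so the groups overlapped. None of the 22 interferon genes was called (limma, 2 at an unadjusted p below 0.05), with a median of 0.18. Of 39 Hox and other positional genes, which record where in the embryo a fibroblast came from, 1 was higher, Tbx3 (0.59 ± 0.11, adjusted p = 0.00589). That is a share of 2.6%, against 3.44% of all genes. Of 21 imprinted genes 1 was lower (4.8%, against 5.4% of all genes). This was Peg12 (-0.52 ± 0.12, adjusted p = 0.0186), which ended without LSL-WT+Cre 1 or 3 or WT+Cre 1 (up to 0.0897). With WT+Cre 3 moved both missed, Tbx3 at 0.52 (adjusted p = 0.0614) and Peg12 at -0.34 (0.287), while Tbx3 passed with any 1 array left out.

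The cells without p53 were compared in the same way. LSL-WT+Emp and Null+Cre, on arrays that the main comparison did not use, differed in 73 of 14756 genes (0.495%), 35 higher (0.237%) and 38 lower (0.258%) in LSL-WT+Emp, and in 27 without the block. These groups also differed in the virus, the strain labels and the sex chromosome pattern, and the replicate numbers only overlapped in part. Xist stood at 6.77, 12.62 and 6.32 in LSL-WT+Emp and at 6.81, 6.53 and 5.72 in Null+Cre, where WT+Cre had 11.47 to 11.86, so Null+Cre does not match WT+Cre as LSL-WT+Emp matches LSL-WT+Cre. Leaving out a single LSL-WT+Emp array or Null+Cre 2 gave 8 to 14, and leaving out LSL-WT+Cre 1 gave 23. The share of higher genes among the 73 depended on the scaling, with 51 higher and 34 lower after median centring and 24 and 43 after quantile normalization. Of the 1304 genes, 19 were among the 73, which is 19 of 1304 and 19 of 73, and 13 of the 19 had the same sign. Of the 507 genes higher with the restored allele 70.2% were also positive without p53 (54.7% of all genes were), and of the 797 lower 54.1% were negative (45.3%). The median differences without p53 were 0.08 and -0.02, against 0.45 and -0.47 with p53.

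**Figure D5:**
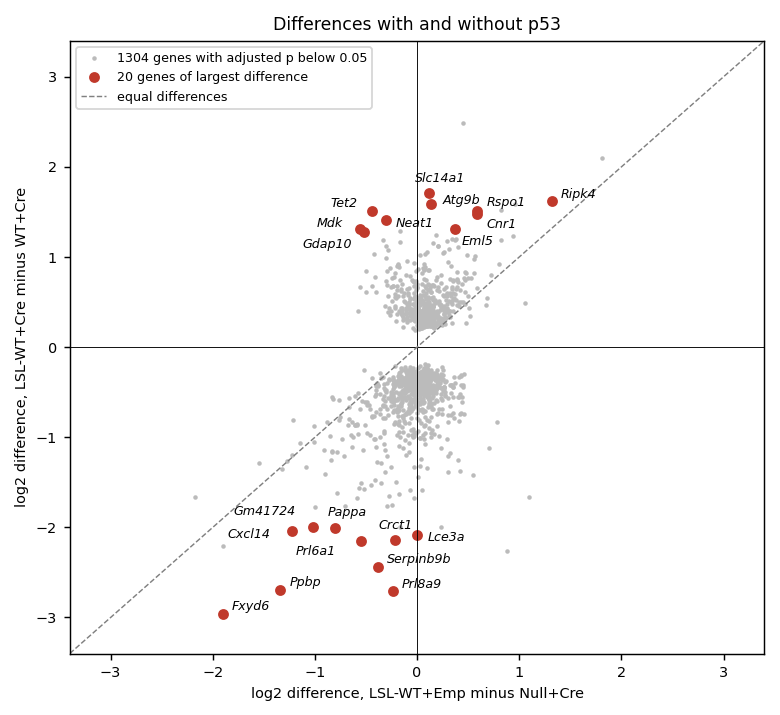
Log2 difference with p53 (LSL-WT+Cre minus WT+Cre, y axis) against that without p53 (LSL-WT+Emp minus Null+Cre, x axis) for the 1304 genes past the threshold (grey) and the 20 of largest difference (red); the dashed line marks equal differences. Fxyd6, Ripk4, Cxcl14, Ppbp and Gm41724 differed in the same direction on both axes by more than 1 log2 unit, while Crct1, Lce3a, Prl8a9, Atg9b and Slc14a1 lay near 0 on the x axis.

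The test of the difference of differences, between the step from LSL-WT+Emp to LSL-WT+Cre and the step from Null+Cre to WT+Cre, called 234 genes (1.59%), 64 higher (0.434%) and 170 lower (1.15%). It called 12 without the block, 37 with Xist as a covariate and 1 without any of LSL-WT+Cre 1, LSL-WT+Emp 2 or Null+Cre 2, each in turn. The count was 118 without WT+Cre 1, 128 without WT+Cre 2, 595 without WT+Cre 3, 40 without LSL-WT+Emp 1, 96 without LSL-WT+Emp 3 and 143 without Null+Cre 3. Median centring gave 59 higher and 576 lower. Xist was low on all Null+Cre and high on all WT+Cre arrays, while LSL-WT+Emp and LSL-WT+Cre had like levels number by number. In the constitutive step p53 and the sex chromosome pattern therefore cannot be told apart, other than by the Xist covariate. In the p53 lists 2 of 54 genes passed, Mdm4 (0.70, adjusted p = 0.0216) and Cdkn1a (0.78, adjusted p = 0.0233). Mdm4 lay at 7.90, 8.08 and 8.04 in LSL-WT+Emp and 8.26, 7.98 and 7.83 in Null+Cre. It stood 0.53 higher with p53 in the restored arm (adjusted p = 1.83e-04) and differed by -0.16 in the constitutive one (adjusted p = 0.189).

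Cdkn1a, which missed the threshold between the groups with p53, passed between those without it. Its levels were 10.25, 11.20 and 10.75 in LSL-WT+Emp and 11.75, 11.20 and 11.19 in Null+Cre, a difference of -0.65 (adjusted p = 0.016). The step with p53 was 2.92 in the restored and 2.14 in the constitutive arm. In the cell-cycle lists 2 of 85 genes passed, Ccne2 (-1.63, adjusted p = 0.0233) and Orc6 (-0.64, adjusted p = 0.035). Selected by that test itself, the genes with the smallest p were Timm9, a chaperone of mitochondrial import, Guk1, guanylate kinase, Tpd52l1, Cldn1 and Slc25a32, a mitochondrial folate carrier, all at an adjusted p of 0.0149. Slc25a32 for example stood at 7.79, 7.79 and 8.04 against 8.28, 8.31 and 8.37 with p53, and at 8.50, 8.41 and 8.56 against 8.01, 8.09 and 8.46 without. Its call with p53 and that of Tpd52l1 missed with WT+Cre 3 moved (-0.41, adjusted p = 0.0627, and -0.47, adjusted p = 0.0717). The Timm9 call with p53 missed with the mean of its probe sets, and its difference ranged from -0.62 to -0.11 over all settings.

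The number 2 pair, chosen after seeing the data because its strain label and sex chromosome pattern matched, was described alone. Within it all 507 higher genes were positive and 793 of the 797 lower genes negative, with medians of 0.44 and -0.44. These genes were called in part from that pair, so this adds no independent evidence. In the number 2 pair Mdm2 differed by 0.69, Mdm4 by 0.78, Ccne2 by -1.69, Cldn1 by -2.46 and Cdkn1a by 0.20. The p53 lists had their largest median in this pair, 0.33, as did the cell-cycle lists in size, -0.51, while the median of all genes there was -0.042.

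The genes beside the p53 gene on chromosome 11 travel with the knock-in allele when lines are bred, so they were counted. Of these 100 tested genes, 50 on each side, 8 were higher and 3 lower (11%), with a median difference of 0. By direction 3.44% of all genes were higher and 5.4% lower. On chromosome 11 as a whole 123 of 1251 genes passed (9.83%), and the other autosomes ranged from 7.12% to 10.83%. Rnf227 (-0.77, adjusted p = 0.0018) and Cd68 had the largest differences of the 11. The p53 and H-Ras transcripts are not analysed here.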

How the data were processed

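Total RNA of 23 samples was hybridised to Affymetrix arrays. The authors deposited 1 intensity per probe set on a linear scale (8.548 to 32042.1), made with RMA per the submitters' processing notes; its version is not given in the sources used here. Values were taken to log2. Of 45037 probe sets without controls, 34945 carried 1 symbol, 932 several and 9160 none. Each of 18193 genes was its probe set of highest mean. Genes above log2 4.79 (30th percentile) on at least 3 arrays were kept (15266), and 478 on X or Y and 32 without a placement were left out, leaving 14756.

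limma 3.58.1 (R 4.3.3) fitted 7 subgroup means with the title number as a block to all 23 arrays. The groups came from the titles. Equal numbers were taken as pairs since the comparison was defined with the title number as block. Same-number correlations of deviations were 0.303, 0.547 and 0.605 (other numbers -0.5 to 0.088). Deviations within a group cancel out, so these correlations do not vary freely of each other. The fit was also run on data simulated from the same model, with title-number effects built in and independent noise. That run checks the computation and cannot test the block or the other assumptions of the model. Members and lists were chosen with earlier results of these data known. Named genes were the 10 largest differences each way among called genes with separate groups, the 3 strongest of each list, called list members, 8 p53-dependent genes and the 5 smallest p of the difference of differences; families were added after values were seen. Alternatives changed the block, scaling, filter, probe choice, covariates, weights and arrays.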

Additional observations from a re-analysis of the deposited data

Results flagged for a closer look

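For 17 named genes the step from cells without to cells with p53 differed between the LSL-WT cells and the others by the test of the difference itself, (LSL-WT+Cre minus LSL-WT+Emp) minus (WT+Cre minus Null+Cre), in limma at an adjusted p below 0.05. The log2 difference of differences was positive for Tet2 (1.95), Gdap10 (1.80), Neat1 (1.71), Tbx3 (0.80), Cdkn1a (0.78) and Mdm4 (0.70). It was negative for Cldn1 (-2.23), Serpinb9b (-2.06), Lce1h (-1.83), Ccne2 (-1.63), Lce1f (-1.45), Tpd52l1 (-1.0), Slc25a32 (-0.89), Guk1 (-0.87), Timm9 (-0.86), Peg12 (-0.76) and Orc6 (-0.64).

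Timm9, Guk1, Tpd52l1, Cldn1 and Slc25a32, 5 of the 17, were named because they had the smallest p in this same test, and the other 12 by other rules or, for Lce1f and Lce1h, as family members after their values were seen. The value of Lce1f rests on WT+Cre alone, since the gene lay under the low threshold of log2 4.79 in the other 3 groups. The whole set of 234 called genes shrank to 1 when LSL-WT+Cre 1, LSL-WT+Emp 2 or Null+Cre 2 was left out. The step from Null+Cre to WT+Cre crossed from low Xist (5.72 to 6.81) on every array to high Xist (11.47 to 11.86), while LSL-WT+Emp (6.77, 12.62 and 6.32) and LSL-WT+Cre (6.40, 12.71 and 6.42) matched number by number. With Xist as a covariate 37 genes passed, and p53 and the sex chromosome pattern cannot be told apart in the constitutive step otherwise. The step in the LSL-WT cells also changed the virus, and its part in these values was not tested.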

How the results depend on the processing

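The count of 1304 genes became 142 without the replicate block, 0 when only the 6 compared arrays were fitted and 657 with Xist as a covariate. It was 45 without the number 1 arrays and 215 to 1641 over the fits that left out 1 array. With all probe sets kept the unit was the probe set, and 2648 of 27171 passed. The 73 genes without p53 became 27 without the block, 140 with the title number as a random effect, 0 with the compared arrays alone (847 at an unadjusted p below 0.05), 44 with strain as a covariate, 161 with array weights, 38 with WT+Cre 3 moved and 6 without the number 1 arrays (8 to 77 with 1 array left out). The 234 genes of the difference of differences became 12 without the block, 2 with only the compared arrays, 635 after median centring and 404 with strain. The count was 37 with Xist, 355 with array weights, 0 without the number 1 arrays (1544 unadjusted) and 1 to 595 with 1 array left out. With all probe sets kept 624 of 27171 probe sets passed. The 12 genes of the p53 lists became 2 without the block, 0 with those 6 arrays alone, 7 with WT+Cre 3 moved and 1 without the number 1 arrays (4 to 13). The 6 cell-cycle genes became 0 under either change (no block, or the compared arrays alone), 11 with all probe sets, 2 with array weights and 0 without the number 1 arrays (2 to 10). The cause was not tested; the fits of fewer arrays have fewer degrees of freedom. Of 77 named genes called, 25 passed in each fit with 1 array left out, 49 missed without the block, 23 with Xist as a covariate, 44 with WT+Cre 3 moved, 70 without the number 1 arrays and 77 with the compared arrays alone, and no named gene changed direction while called. With 3 arrays a group, 37 of the 42 p53-list genes and 71 of the 79 cell-cycle genes that missed had a 95% interval within 2-fold.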
